A study of Mus musculus with 8 samples.

Results

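The genes described here encode the coat of the hepatic lipid droplet and the machinery that empties and fills it: the perilipins Plin2, Plin3, Plin4 and Plin5, the CIDE proteins Cidea, Cideb and Cidec, the lipase ATGL (Pnpla2), its inhibitor G0s2, and the fatty acid receptor Cd36. The set was chosen by gene symbol. All 10 symbols were found among 55421 transcripts, each on a single row, and all 10 passed the filter on low counts that left 14506 transcripts for testing.

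Hepatocytes store fatty acids as triglyceride in droplets whose surface is covered by perilipins, which limit the access of lipases to the lipid core. ATGL removes the first fatty acid of a triglyceride, with ABHD5 as its co-activator and G0S2 as its inhibitor, and CIDE proteins move lipid from small droplets into larger ones. Several of these genes are known targets of the nuclear receptors PPAR alpha and PPAR gamma in mouse liver, and CIDEA and CIDEC, typical of fat tissue, are also known from fatty liver.

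Liver RNA came from male C57BL/6J mice fed a high-fat diet with 45% of calories from fat, which all groups shared, and killed at 30 weeks of age. Mice received sudachitin, a polymethoxyflavone, by oral gavage every other day at 100 mg per kg of body weight, or the PBS vehicle (control). Livers were taken at zeitgeber time 18 (ZT18, hours after lights on, in the night) and at ZT6 (in the day). Gavage was given between ZT8 and ZT10 in all groups, so ZT18 and ZT6 livers were taken at different intervals after a dose. Time of day and time since gavage cannot be told apart. The 4 groups were sudachitin ZT18, control ZT18, sudachitin ZT6 and control ZT6, with 2 mice and thus 2 libraries each. Poly(A) RNA was sequenced without strand information, and the series addresses the action of sudachitin on the liver clock and metabolism.

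Counts in exons came to 13914116 to 17759630.5 per library. Summed expression of 6 hepatocyte markers was 81290 to 101500 CPM (counts scaled to library size with TMM factors). All 6 clock genes examined differed between ZT18 and ZT6 in the pooled comparison, where 3.68% of all tested transcripts did. Control ZT18 replicate 1 stood apart: 38.2% of tested transcripts had their maximum or minimum in this library, against 17.4% to 27.7% in each of the others. Of 11 genes known to be higher in male mouse liver, 8 were at their minimum there, and its 12 female-biased genes summed to 501.5 CPM, against 8.42 to 46.0 CPM in the other libraries. Of the 12, Cyp2b9 (309 CPM), Acot3 (128 CPM) and Cyp2a4 (50.4 CPM) made up most of this sum, 6 were at their maximum in this library and 3 had 0 counts.

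Promoter sequences are shown for the genes that the comparisons turn on: G0s2 and Plin5, which passed the test between ZT18 and ZT6, and Plin4 and Cidec, which had their highest levels in the same 2 livers. Each spans 250 bases before to 50 bases after a RefSeq transcript start on GRCm38.p6, written 5′ to 3′ on the strand of the gene. Capitals mark every match, on either strand, to the E-box CACGTG, the D-box TTATGTAA, the nuclear receptor hexamer AGGTCA, its direct repeat DR1, the TATA box TATAAA, the CCAAT box CCAAT and the GC box GGGCGG; a hexamer can lie within the direct repeat.
G0s2, chr1:193273139-193273438, minus strand: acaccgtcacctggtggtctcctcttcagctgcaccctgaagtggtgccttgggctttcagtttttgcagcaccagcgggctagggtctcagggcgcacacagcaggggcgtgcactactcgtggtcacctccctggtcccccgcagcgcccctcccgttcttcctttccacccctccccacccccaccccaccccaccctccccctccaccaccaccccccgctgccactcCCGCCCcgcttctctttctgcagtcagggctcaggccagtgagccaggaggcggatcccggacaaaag
Plin5, chr17:56117499-56117798, minus strand: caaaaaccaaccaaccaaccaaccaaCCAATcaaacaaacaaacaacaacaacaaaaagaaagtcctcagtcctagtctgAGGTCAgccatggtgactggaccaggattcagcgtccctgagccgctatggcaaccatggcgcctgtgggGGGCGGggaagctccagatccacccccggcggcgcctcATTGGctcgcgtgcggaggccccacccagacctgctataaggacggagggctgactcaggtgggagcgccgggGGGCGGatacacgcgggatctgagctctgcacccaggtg
Plin4, chr17:56109733-56110032, minus strand: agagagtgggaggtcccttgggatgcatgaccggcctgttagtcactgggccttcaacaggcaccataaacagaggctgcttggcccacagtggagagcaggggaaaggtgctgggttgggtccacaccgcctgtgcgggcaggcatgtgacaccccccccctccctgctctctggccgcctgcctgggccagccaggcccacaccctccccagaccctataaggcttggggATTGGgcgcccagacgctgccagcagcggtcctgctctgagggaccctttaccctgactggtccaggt
Cidec, chr6:113435711-113436010, minus strand: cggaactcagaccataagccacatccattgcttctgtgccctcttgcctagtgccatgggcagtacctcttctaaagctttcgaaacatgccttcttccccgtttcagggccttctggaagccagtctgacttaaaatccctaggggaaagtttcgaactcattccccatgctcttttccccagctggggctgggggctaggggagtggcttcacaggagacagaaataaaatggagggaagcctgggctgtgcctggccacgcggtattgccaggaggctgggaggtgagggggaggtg

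In the G0s2 window only a GC box was found, 18 bases before the start on the opposite strand. The Plin5 window held the hexamer AGGTCA 170 bases before the start. It also held 2 CCAAT boxes and 2 GC boxes. The Plin4 window held a CCAAT box, and none of the letters searched occurred in the Cidec window. Plin5 and Cidec each have 2 RefSeq promoters, of which only the nearest to the counted transcript start was examined. The RefSeq starts lie 29 bases (G0s2), 48 bases (Plin5), 21 bases (Plin4) and 0 bases (Cidec) from the starts of the counted transcripts. Of 32851 RefSeq promoters of the same length, 7.15% held the E-box, 0.938% the D-box, 16.3% the hexamer, 0.0396% the direct repeat, 13.6% the TATA box, 37.4% the CCAAT box and 35.7% the GC box. Among the 9 windows examined, the hexamer occurred in Plin2, Plin5 and Cd36, and the E-box in Plin2. The Cd36 window lies 52851 bases from the start of the counted Cd36 transcript.

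Ordered by level per length (FPKM, counts scaled to exon length and library total, as the authors computed it), 3 transcripts were abundant and 7 were not. Plin2, the main perilipin of hepatocytes, averaged 156.7 FPKM over the 8 livers (lowest 122.9, highest 244.9), G0s2 averaged 106 FPKM (47.9 to 167) and Cideb 95.2 FPKM (81.5 to 109.2). The range of G0s2 overlapped those of Plin2 and Cideb, while Plin2 was above Cideb in all 8 livers. Cd36 averaged 13.7 FPKM (4.28 to 47.4), Plin5 11.7 FPKM (8.51 to 17.3), Pnpla2 11.2 FPKM (9.47 to 13.6) and Plin3 6.69 FPKM (4.33 to 9.16). Neighbours in this order overlapped in range, except that Cideb was above Cd36, and Pnpla2 above Plin3, throughout. Cidec averaged 4.72 FPKM (0.366 to 24.9), Cidea 2.09 FPKM (0.0464 to 8.92) and Plin4 1.53 FPKM (0.285 to 4.08). Plin2 supplied 86.8% to 90.2% of the summed perilipin FPKM in every liver. Cideb supplied 87.9% to 99.5% of the summed CIDE FPKM in 7 livers and 75.2% in control ZT18 replicate 1. The level and share of Cideb are uncertain, because exons of Nop9 on the opposite strand cover 71.3% of its exon length. The libraries carry no strand.

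The members also differed in how much they varied. The highest and the lowest liver differed 175-fold in Cidea, 65.6-fold in Cidec, 14.7-fold in Plin4 and 10.1-fold in Cd36 (CPM). The range of each of these 4 genes on the log2 scale was wider than that of at least 98.9% of all tested transcripts. Pnpla2, with a 1.45-fold span, and Cideb, with a 1.26-fold span, were wider than 35.3% and 11.7% of tested transcripts. The Cideb span carries the same uncertainty from Nop9 as its level.

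**Figure D1:**
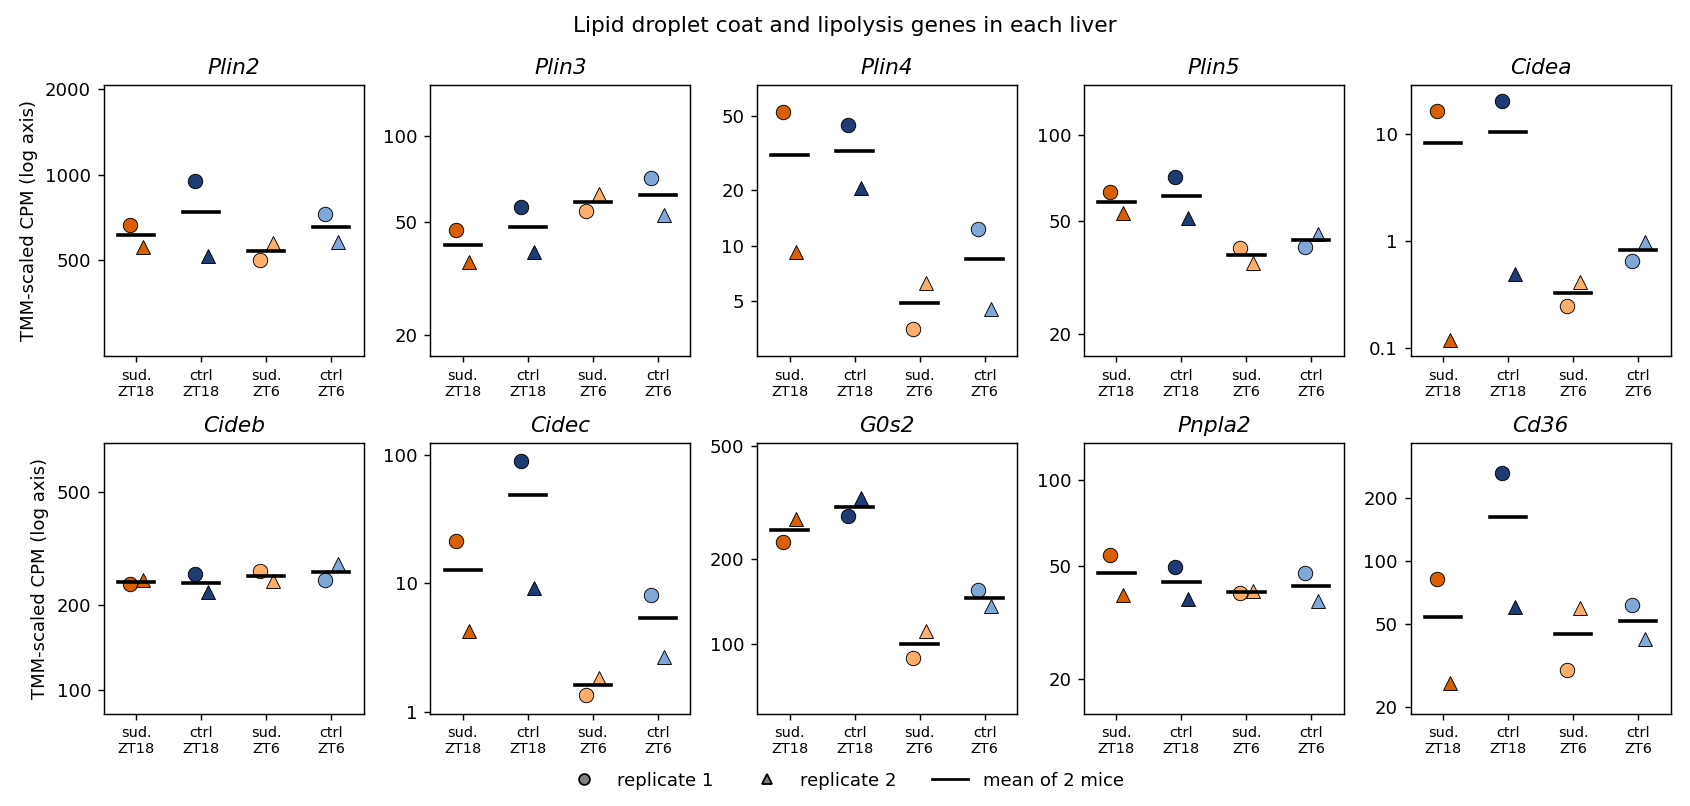
TMM-scaled CPM of the 10 genes in each liver, on log axes, by group (sudachitin and control, ZT18 and ZT6). Circles are replicate 1, triangles replicate 2 and bars the mean of 2 mice. G0s2 and Plin5 were higher in all 4 ZT18 livers than in all 4 ZT6 livers, and Cidea was at 16.4 and 20.5 CPM in replicate 1 of each ZT18 group and below 1 CPM in the other 6 livers.

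Between night and day, G0s2 and Plin5 rose over both treatments together. They were 2 of the 10 members, and the other 8 did not pass edgeR's quasi-likelihood test at an adjusted p of 0.05. Over all tested transcripts 3.68% passed in this comparison, and 1.86% passed with a higher level at ZT18. Of the 10 members 8 had a log2 change above 0, with a median of 0.77, against a median of 0.02 over all tested transcripts. Without control ZT18 replicate 1 these were 7 of 10 and 0.35, and without replicate 1 of both ZT18 groups 4 of 10 and -0.12. In each treatment group alone 1 of 10 members passed, G0s2 both times, where 0.186% (sudachitin) and 0.524% (control) of all transcripts did, and 0.11% and 0.214% did with a higher level at ZT18.

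G0s2, the inhibitor of ATGL, lies at chr1:193272161-193273217 on the minus strand of GRCm38. It was at 229.5 and 276 CPM in sudachitin ZT18 livers and at 89.6 and 111 CPM in sudachitin ZT6 livers. In control livers it was at 283 and 327 CPM at ZT18 and at 155 and 136 CPM at ZT6. Every ZT18 liver was above every ZT6 liver, as for 5.99% of all tested transcripts. G0s2 rose by 1.20 on the log2 scale over both treatments (SE 0.12, edgeR adjusted p = 0.00185), and its adjusted p ranged from 1.93e-21 to 0.0103 over the alternatives tried. Within sudachitin livers it rose by 1.33 (SE 0.16, edgeR adjusted p = 0.0261) and within control livers by 1.07 (SE 0.16, edgeR adjusted p = 0.0363). The difference between these 2 changes was 0.26 (SE 0.23, edgeR adjusted p = 0.998). The call within control livers was lost when only the ZT6 and ZT18 control libraries entered the fit (edgeR adjusted p = 0.132), and when any 1 of the ZT6 libraries was removed (0.197 and 0.309 for replicates 1 and 2 of control, 0.0614 and 0.059 for those of sudachitin), over a range of 7.42e-08 to 0.309. The call within sudachitin livers was lost without any single sudachitin or control ZT6 library, or without either sudachitin ZT18 library (edgeR adjusted p of 0.064 to 0.199), over a range of 6.53e-12 to 0.199.

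Pnpla2, which encodes ATGL, was at 54.5 and 39.5 CPM in sudachitin ZT18 livers, 49.4 and 38.2 CPM in control ZT18 livers, 40.1 and 40.9 CPM in sudachitin ZT6 livers and 47.1 and 37.6 CPM in control ZT6 livers. All 4 groups overlapped, and the ZT18 to ZT6 change over both treatments was 0.13 (SE 0.13, edgeR adjusted p = 0.616). Per length, G0s2 stood at 8.69 and 14.4 times the FPKM of Pnpla2 in sudachitin ZT18 livers and at 4.60 and 5.62 times in sudachitin ZT6 livers. In control livers the ratio was 11.8 and 17.7 at ZT18 and 6.78 and 7.46 at ZT6. The group means were 11.5 ± 4.03 in sudachitin ZT18 and 5.11 ± 0.720 in sudachitin ZT6 livers, and 14.7 ± 4.16 in control ZT18 and 7.12 ± 0.483 in control ZT6 livers (SD, n = 2 mice). All ZT18 livers had a higher ratio than all ZT6 livers, and at ZT18 the 2 mice of a group differed more than at ZT6. These are ratios of transcript levels, described here without a test.

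**Figure D2:**
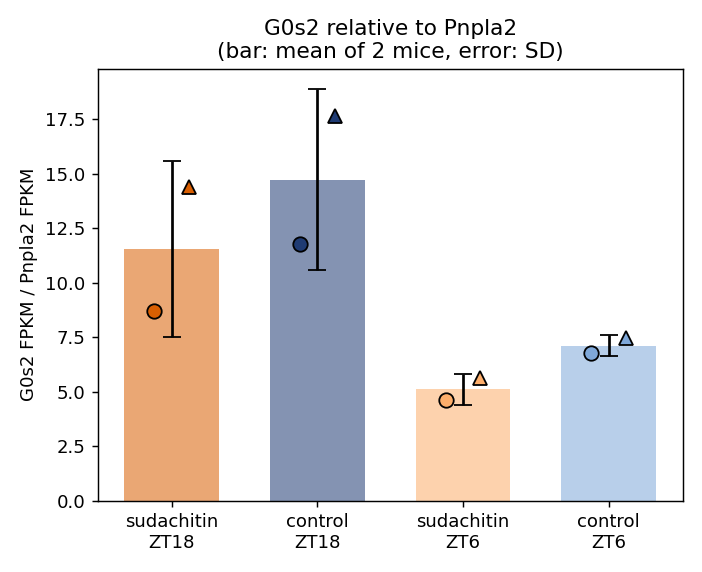
Ratio of G0s2 FPKM to Pnpla2 FPKM in each liver. Bars are means of 2 mice, error bars SD, circles replicate 1 and triangles replicate 2. The 4 ZT18 livers lie between 8.69 and 17.7 and the 4 ZT6 livers between 4.60 and 7.46.

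The genes whose profile over the 8 libraries was nearest to that of G0s2 were Wnt5a, Adamts1 and Vac14. The measure was the mean absolute difference of centred log2 CPM, which was 0.15 for Wnt5a, 0.18 for Adamts1 and 0.19 for Vac14, against a median of 0.61 over the other tested transcripts.

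Among the perilipins, Plin5, a coat protein of oxidative tissues that links droplets to mitochondria and binds ATGL and ABHD5, also passed the test. It was at 63.5 and 53.3 CPM in sudachitin ZT18 livers and at 71.1 and 51.4 CPM in control ZT18 livers. At ZT6 it was at 40.1 and 35.5 CPM in sudachitin and at 40.5 and 45.1 CPM in control livers. The ZT18 and ZT6 livers did not overlap. Plin5 rose by 0.57 on the log2 scale over both treatments (SE 0.12, edgeR adjusted p = 0.0349). The changes within sudachitin livers, 0.63 (SE 0.18, edgeR adjusted p = 0.199), and within control livers, 0.52 (SE 0.18, edgeR adjusted p = 0.279), did not pass. The pooled call was lost without any single ZT6 library or without sudachitin ZT18 replicate 1 (edgeR adjusted p of 0.0828 to 0.115, range over the alternatives 7.86e-05 to 0.115), and without replicate 1 of both ZT18 groups the change was 0.38 (SE 0.10, edgeR adjusted p = 0.0686).

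Plin4, an exchangeable perilipin best known from fat and muscle, was at 52.3 and 9.28 CPM in sudachitin ZT18 livers and at 44.5 and 20.4 CPM in control ZT18 livers. At ZT6 it was at 3.57 and 6.27 CPM in sudachitin and at 12.3 and 4.58 CPM in control livers. Replicate 1 of each ZT18 group was high, and within each treatment the ZT18 livers lay above the ZT6 livers. The pooled log2 change was 2.29 (SE 0.55, edgeR adjusted p = 0.0558), with 2.65 (SE 0.81, edgeR adjusted p = 0.23) in sudachitin and 1.96 (SE 0.77, edgeR adjusted p = 0.345) in control livers, none of which passed. DESeq2 gave Plin4 an adjusted p of 0.0147 for the pooled change, in a range of 5.17e-60 to 0.169 over the alternatives. Without replicate 1 of both ZT18 groups the change was 1.11 (SE 0.34, edgeR adjusted p = 0.0915). Plin4 shares 17 exonic bases with Hdgfl2 on the opposite strand, 0.3% of its exon length.

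Plin2 and Plin3, the coats found in most cells, did not pass. Plin2 was at 667 and 558 CPM in sudachitin ZT18 livers, 955 and 519 CPM in control ZT18 livers, 499.9 and 576 CPM in sudachitin ZT6 livers and 727 and 582 CPM in control ZT6 livers. Its groups overlapped, and its pooled log2 change was 0.18 (SE 0.18, edgeR adjusted p = 0.612). Plin3, which moves between the cytosol and nascent droplets, was the member with the lowest log2 change at ZT18, at -0.44 (SE 0.15, edgeR adjusted p = 0.137). It was at 46.7 and 35.9 CPM in sudachitin ZT18 livers and 54.6 and 62.5 CPM in sudachitin ZT6 livers, and at 56.2 and 39.3 CPM in control ZT18 livers and 71.0 and 52.9 CPM in control ZT6 livers. The sudachitin livers did not overlap between times, which made Plin3 the 1 member lower at ZT18 without overlap there (22.3% of all transcripts), and the control livers did overlap. Without replicate 1 of both ZT18 groups Plin3 fell by 0.69 (SE 0.13, edgeR adjusted p = 0.0225), in a range of 0.00656 to 0.323 over the alternatives.

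The CIDE genes differed in their spread. Cideb, the CIDE protein of normal hepatocytes, with a known role in the lipid loading of very-low-density lipoprotein, was at 221 to 279 CPM in all 8 livers, with a pooled log2 change of -0.10 (SE 0.09, edgeR adjusted p = 0.565). Its value is uncertain, because exons of Nop9 on the opposite strand cover 71.3% of its exon length and the libraries carry no strand. Counts of Cideb were 0.991 to 1.06 times those of Nop9 in every library.

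Cidea, which enlarges droplets in brown fat, was at 16.4 and 0.117 CPM in sudachitin ZT18 livers and at 20.5 and 0.492 CPM in control ZT18 livers. At ZT6 it was at 0.246 and 0.409 CPM in sudachitin and at 0.648 and 0.98 CPM in control livers. The counts behind these values were 276.5 and 368 in replicate 1 of the sudachitin and control ZT18 groups and 2 to 14.5 in the other 6 libraries. The pooled log2 change of 4.07 (SE 1.30, edgeR adjusted p = 0.12) rested on 1 liver in each ZT18 group. Without these 2 livers the change was -0.94 (SE 0.54, edgeR adjusted p = 0.324), and the adjusted p ranged from 1.05e-61 to 0.324 over the alternatives.

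Cidec, also called FSP27, which drives the growth of large droplets, was at 21.1 and 4.23 CPM in sudachitin ZT18 livers and at 1.35 and 1.84 CPM in sudachitin ZT6 livers. In control livers it was at 88.7 and 9.20 CPM at ZT18 and at 8.06 and 2.68 CPM at ZT6. Replicate 1 of each ZT18 group was the highest of its group. Within sudachitin livers Plin4, Plin5, Cidec and G0s2 were higher at ZT18 without overlap, where 23.5% of all transcripts were, and within control livers the same 4 genes were, where 21.3% of all transcripts were. The pooled log2 change was 3.12 (SE 0.77, edgeR adjusted p = 0.0613), with 2.99 (SE 1.22, edgeR adjusted p = 0.365) in sudachitin and 3.21 (SE 1.06, edgeR adjusted p = 0.266) in control livers. DESeq2 gave the pooled change an adjusted p of 0.00752, in a range of 5.38e-89 to 0.166 over the alternatives. Without replicate 1 of both ZT18 groups it was 1.05 (SE 0.38, edgeR adjusted p = 0.139).

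The genes nearest to Cidec over the 8 libraries were Plin4 (mean absolute difference of centred log2 CPM 0.56), Ttc39a (0.60) and Gprc5b (0.63), against a median of 1.50. Those nearest to Cidea were Gprc5b (0.97), Cyp2a4 (1.01) and Cidec itself (1.07), against a median of 1.91. Cyp2a4 was at 50.4 CPM in control ZT18 replicate 1 and 2.19 CPM in sudachitin ZT18 replicate 1. Ttc39a was at 8.425 and 0.770 CPM in these 2 livers, and at 0.881 CPM in sudachitin ZT18 replicate 2. Gprc5b was at 2.02 and 0.235 CPM in sudachitin ZT18 livers, 25.1 and 1.34 CPM in control ZT18 livers and 0.392 to 1.01 CPM in the 4 ZT6 livers, so that it was high in control ZT18 replicate 1 to a greater degree than in sudachitin ZT18 replicate 1.

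Cd36, which takes up long-chain fatty acids and is known to be higher in female than in male mouse liver, was at 81.3 and 26.0 CPM in sudachitin ZT18 livers and at 262 and 60.2 CPM in control ZT18 livers. At ZT6 it was at 30.1 and 59.3 CPM in sudachitin and at 61.4 and 42.0 CPM in control livers. One liver, control ZT18 replicate 1, lay above all others, and the groups overlapped. The pooled log2 change was 0.96 (SE 0.54, edgeR adjusted p = 0.35), and without replicate 1 of both ZT18 groups it was -0.25 (SE 0.30, edgeR adjusted p = 0.668). Within sudachitin livers the change was 0.26 (SE 0.69, edgeR adjusted p = 0.911) and within control livers 1.64 (SE 0.70, edgeR adjusted p = 0.376), which was 0.21 (SE 0.59, edgeR adjusted p = 0.907) without control ZT18 replicate 1. The difference between them was -1.38 (SE 0.98, edgeR adjusted p = 0.998), and 0.041 (SE 0.76, edgeR adjusted p = 1) without that library.

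**Figure D3:**
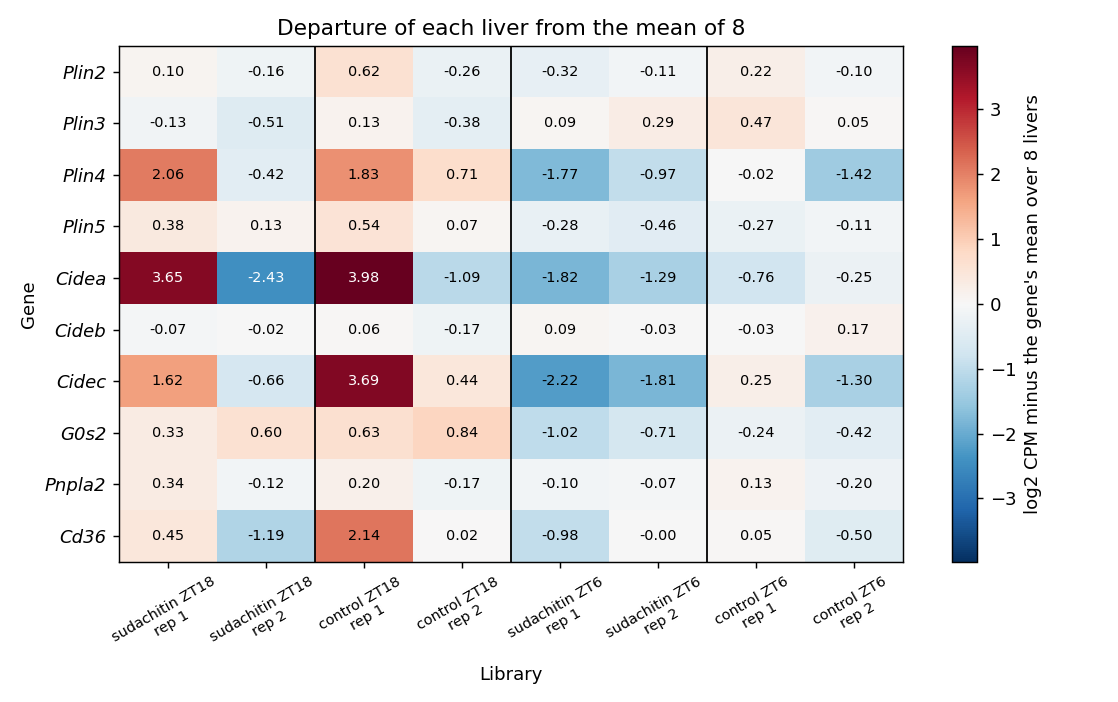
Log2 CPM of each gene in each liver minus its mean over the 8 livers, by colour and in figures; columns are livers, rows genes. Cidea, Cidec and Plin4 were 1.62 to 3.98 above their means in replicate 1 of both ZT18 groups, and G0s2 was above its mean in all 4 ZT18 livers and below it in all 4 ZT6 livers.

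Markers of other cells were read beside these values. In replicate 1 of both ZT18 groups the adipocyte genes Adipoq and Plin1 had 0 counts, and Lep had 0.0593 CPM in the sudachitin and 0 CPM in the control liver. Adipoq and Plin1 were highest in control ZT18 replicate 2, at 0.211 and 0.141 CPM, where Cidea was at 0.492 CPM. Retn had 0.0593 CPM in sudachitin ZT18 replicate 1 and 0 CPM in control ZT18 replicate 1. Acvr1c had 0.119 and 0.446 CPM in these livers, the latter its highest value of the 8. Adrb3 was lowest in control ZT18 replicate 1, at 1.90 CPM, against 5.39 to 10.3 CPM in the other 7 livers. Of the 7 adipocyte markers Cfd and Adrb3 passed the filter. The 7 summed to 20.6 and 11.8 CPM in sudachitin ZT18, 17.6 and 16.4 CPM in control ZT18, 10.9 and 10.2 CPM in sudachitin ZT6 and 21.6 and 17.3 CPM in control ZT6 livers. Cfd moved in part with Cidea, at 15.0 and 2.52 CPM in sudachitin ZT18 and 15.3 and 5.27 CPM in control ZT18 livers, but was also at 13.5 and 9.15 CPM in control ZT6 livers, against 2.34 and 2.52 CPM in sudachitin ZT6 livers. Skeletal muscle markers summed to 0.0587 to 1.004 CPM in all 8 livers. The female-biased genes summed to 501.5 CPM in control ZT18 replicate 1 and to 28.6 CPM in sudachitin ZT18 replicate 1, within the 8.42 to 46.0 CPM of the other 7 libraries. The 7 endothelial markers summed to 92.7 to 121 CPM over the 8 livers, and their part in the Cd36 values was not tested. The 7 stellate cell markers summed to 311 and 236 CPM in sudachitin ZT18, 315 and 316.5 CPM in control ZT18, 233 and 251 CPM in sudachitin ZT6 and 245 and 277.5 CPM in control ZT6 livers. None of them passed in edgeR between times over both treatments, and 2 had an unadjusted p under 0.05, where 20.4% of all tested transcripts did. DESeq2, which called 6.49% of all transcripts, called Col1a1, a collagen gene. Col1a1 was at 26.3 CPM in control ZT18 replicate 1 and 4.30 to 12.6 CPM in the other 7 livers. The part of the stellate cell markers in the results was not tested. In bulk tissue, fewer cells of a type and less RNA per cell cannot be told apart.

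Sudachitin was set against control at each time. None of the 10 members passed in edgeR at ZT18, ZT6 or over both times, where 0.0138%, 0% and 0.0207% of all tested transcripts passed. At an unadjusted p under 0.05 there were 0 members at ZT18, 1 at ZT6 (G0s2) and 2 over both times (Cidec and G0s2), where 6.51%, 2.12% and 4.41% of all tested transcripts were. DESeq2 called 0 members in each of these comparisons, where 0.338%, 0.062% and 0.103% of all tested transcripts were called. In the interaction of treatment and time DESeq2 called 0 members (0.0965% of all transcripts), and edgeR also called 0 (0% of all transcripts). There 0 members had an unadjusted p under 0.05, where 3.78% of all transcripts did. Over both times 9 of 10 members had a log2 change below 0, with a median of -0.32, against -0.001 over all tested transcripts. At ZT6 all 10 were below 0, with a median of -0.25, against -0.005, and at ZT18 8 of 10 were, with a median of -0.24, against -0.002. Without control ZT18 replicate 1 the counts below 0 were 7 of 10 over both times (median -0.052), 10 at ZT6 (median -0.24) and 2 at ZT18, where the median was 0.21, of the opposite sign. The treatment comparisons share their control livers with the comparisons of time.

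G0s2 was lower in both sudachitin livers than in both control livers at each time, with the values given above. Its log2 difference was -0.27 (SE 0.16, edgeR adjusted p = 0.819) at ZT18, -0.53 (SE 0.16, edgeR adjusted p = 1) at ZT6 and -0.40 (SE 0.12, edgeR adjusted p = 0.996) over both times. None of these passed. At ZT6, 5 members (Plin2, Plin5, Cidea, Cidec and G0s2) were lower in both sudachitin than in both control livers, as were 16.3% of all tested transcripts, and none was higher. At ZT18 G0s2 was the 1 such member, where 15.5% of transcripts were.

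The log2 difference of Cidec was -1.96 at ZT18 (SE 0.97, edgeR adjusted p = 0.786), where the groups overlapped. At ZT6 the difference was -1.74 (SE 1.31, edgeR adjusted p = 1), and over both times -1.89 (SE 0.75, edgeR adjusted p = 0.996). Without replicate 1 of both ZT18 groups the pooled difference was -1.49 (SE 0.38, edgeR adjusted p = 0.873). Without control ZT18 replicate 1 the pooled difference was -0.66 (SE 0.67, edgeR adjusted p = 1) and the ZT18 difference 0.46 (SE 0.82, edgeR adjusted p = 1), of the opposite sign. Cd36 differed by -1.59 at ZT18 (SE 0.70, edgeR adjusted p = 0.768) and by -0.21 at ZT6 (SE 0.69, edgeR adjusted p = 1), and over both times by -0.91 (SE 0.53, edgeR adjusted p = 0.996). Without control ZT18 replicate 1 the Cd36 difference was -0.16 at ZT18 (SE 0.59, edgeR adjusted p = 1) and -0.19 over both times (SE 0.36, edgeR adjusted p = 1). Macrophages are known to express Cd36 too, and 9 of 10 macrophage markers had a log2 difference above 0 over both times. None of them passed in edgeR or DESeq2, and 5 had an unadjusted p under 0.05, where 4.41% of all tested transcripts did. These 10 summed to 154 and 149 CPM in sudachitin ZT18, 170 and 107 CPM in control ZT18, 140 and 220.5 CPM in sudachitin ZT6 and 110.0 and 126.5 CPM in control ZT6 livers, and their part in the Cd36 values was not tested.

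The remaining members were closer to 0 or less precise. Plin2 differed by -0.27 at ZT18 (SE 0.26, edgeR adjusted p = 0.896), by -0.28 at ZT6 (SE 0.26, edgeR adjusted p = 1) and by -0.28 over both times (SE 0.18, edgeR adjusted p = 0.996). Over both times the differences of Plin3, Plin5, Cideb and Pnpla2 lay between -0.15 and 0.02, with SE of 0.09 to 0.15. Plin4 (-0.37, SE 0.53) and Cidea (-0.57, SE 1.19) had wide errors. A p that misses the threshold in 2 mice a group does not show that the groups were alike.

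**Figure D4:**
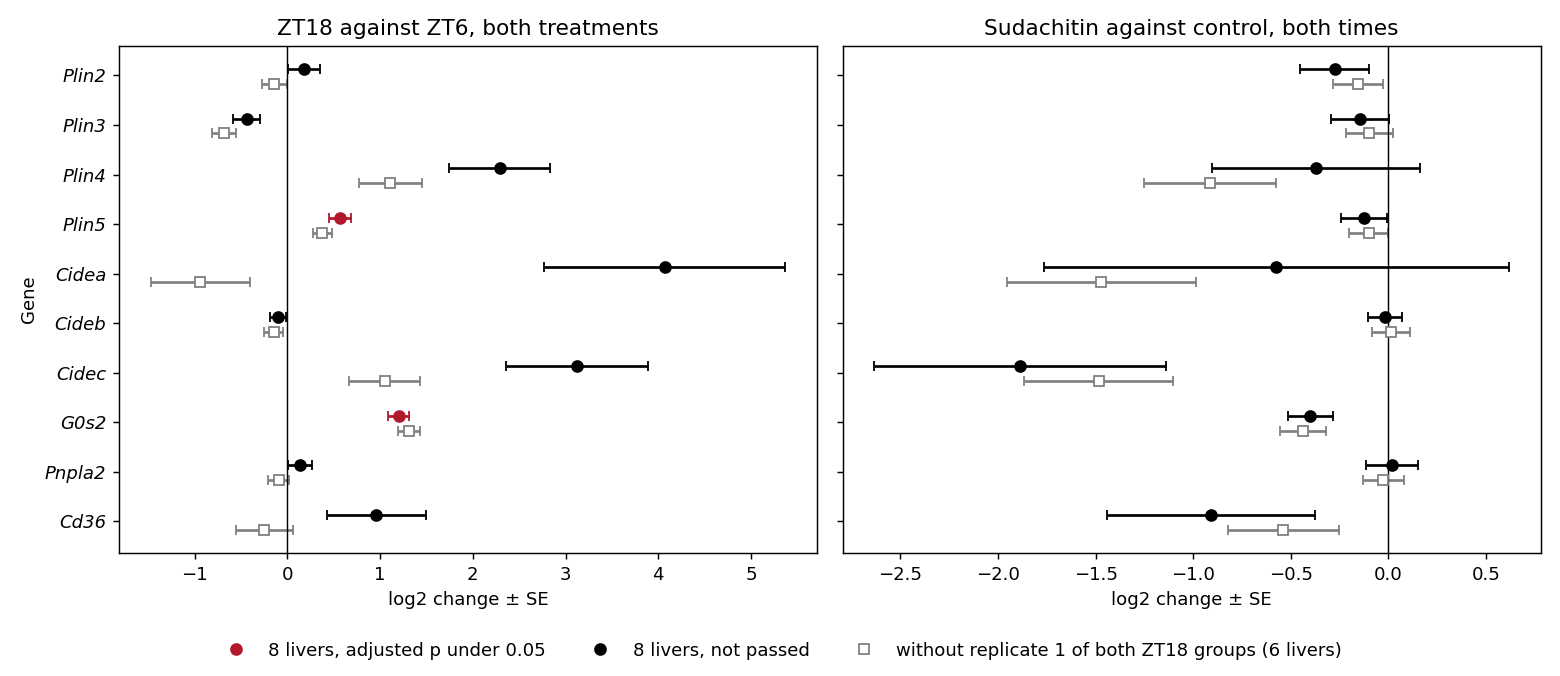
Log2 change with SE of the 10 genes for ZT18 against ZT6 over both treatments (left) and for sudachitin against control over both times (right). Circles are fits to 8 livers, red where the adjusted p is under 0.05 (G0s2 and Plin5 on the left, none on the right), and squares are fits without replicate 1 of both ZT18 groups, where the change of Cidea is -0.94 in place of 4.07.

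Other genes of the pathway were read from lists of known roles. Of 14 lipases, co-activators and inhibitors, 2 rose and 1 fell between ZT18 and ZT6 over both treatments and 11 did not pass. Of all tested transcripts 3.68% passed in this comparison, and 1.86% passed with a higher level at ZT18. Ces1d, a triglyceride hydrolase of the endoplasmic reticulum, rose by 1.41 (SE 0.15, edgeR adjusted p = 0.00265), and Abhd6, a monoacylglycerol lipase, by 0.91 (SE 0.14, edgeR adjusted p = 0.011). Lipc, the secreted hepatic lipase, fell by 0.62 (SE 0.13, edgeR adjusted p = 0.0333). Abhd5, the co-activator of ATGL, was at 25.0 to 33.6 CPM in all 8 livers. The median log2 change of the 14 was 0.11, against 0.02 over all tested transcripts.

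Of 18 tested proteins of droplet formation and the droplet surface none passed in edgeR between times. In this list 6 had an unadjusted p under 0.05, where 20.4% of all tested transcripts did. DESeq2 called 2 (Fitm2 and Mettl7b), where it called 6.49% of all transcripts. The smallest p of the 18 was that of Fitm2, which acts in the budding of droplets from the endoplasmic reticulum. Its log2 change was 0.70 (SE 0.19, edgeR adjusted p = 0.0768). Of 14 genes of fatty acid uptake and activation 2 rose, where 1.86% of all tested transcripts did. These were the acyl-CoA synthetases Acsl4, by 0.57 (SE 0.11, edgeR adjusted p = 0.0296), and Acsl1, by 0.64 (SE 0.13, edgeR adjusted p = 0.0319). Of 17 PPAR receptors and PPAR-responsive genes 3 rose, none fell and 14 did not pass, beside the same 1.86% over all tested transcripts. The median of the 17 was 0.62, which was 0.24 without control ZT18 replicate 1. Among those that rose, Acot1, an acyl-CoA thioesterase, rose by 1.39 (SE 0.21, edgeR adjusted p = 0.0103) and Pdk4, a brake on pyruvate oxidation, by 1.23 (SE 0.22, edgeR adjusted p = 0.019). Control ZT18 replicate 1 had the highest level of the 8 libraries for 14 of these 17 genes, and sudachitin ZT18 replicate 1, which shared its high Cidea and Plin4, for 1. Pparg, the receptor known to drive Cidec in fatty liver, was at 15.8 and 8.93 CPM in sudachitin ZT18, 20.6 and 11.5 CPM in control ZT18, 6.52 and 9.48 CPM in sudachitin ZT6 and 12.4 and 8.17 CPM in control ZT6 livers. Over both times 14 of the 17 PPAR genes had a log2 difference below 0 between sudachitin and control, with a median of -0.37, against -0.001 over all tested transcripts. Without control ZT18 replicate 1 these were 12 of 17 and -0.044. None of the genes in these 4 lists passed between sudachitin and control over both times in edgeR. At an unadjusted p under 0.05 were 2 droplet proteins, 0 lipases, 0 uptake genes and 3 PPAR-responsive genes, where 4.41% of all tested transcripts were. DESeq2 called 0.103% of all transcripts over both times and 0.338% at ZT18, and it called 0 in each of the 4 lists over both times. At ZT18 it called Vldlr, a lipoprotein receptor (edgeR log2 difference -2.14, SE 0.55, adjusted p = 0.59), and Angptl4, an inhibitor of lipoprotein lipase (1.02, SE 0.27, edgeR adjusted p = 0.633), and it also called Angptl4 in the interaction.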

How the data were processed

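Poly(A) RNA of 8 mouse livers was sequenced without strand information. Per the submitters' processing notes, Trimmomatic 0.39, STAR 2.7.2a, HOMER and the GRCm38 and mm10 builds were used. The authors deposited estimated counts per transcript, summed over exons per the file headers, of which 19.7% to 21.9% end in 0.5, and FPKM, which equal the count per length and header total. Counts were rounded to whole numbers with 0.5 taken up, since count models need them, and 14506 of 55421 transcripts passed edgeR's filter by group. Testing used edgeR 4.0.16 in R 4.3.3 (TMM, quasi-likelihood F test, Benjamini-Hochberg over all tested transcripts, threshold 0.05) with all 8 libraries: a model of the 4 group means for comparisons within a treatment or time, with treatment and time as additive terms for the pooled ones. SE is the absolute log2 change divided by the root of F. The method was tested on simulated data with the same spread for every transcript and no liver lying apart. That test does not show how the method performs in livers as variable as these. DESeq2 1.42.0, other scaling, no filter, a replicate block, leave-one-out fits and removal of replicate 1 of both ZT18 groups, the last chosen after seeing the data, were alternatives. Libraries held 13914116 to 17759630.5 counts, and the 2 libraries of a group differed by a chi-square of 16.3 to 56.8 per degree of freedom, above counting error.

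The members and gene lists were chosen with earlier results of these data known. All 10 members are named, and of other genes the called ones, the smallest p of a list with none called, the 3 most alike in profile, and genes a result turns on, some of them chosen after their values were seen. Of the called genes, 1 is not reported here. Promoters are from RefSeq, GRCm38.p6. The Cidea promoter is not shown here.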

Additional observations from a re-analysis of the deposited data

Results flagged for a closer look

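The CPM of each member in the 4 livers of a treatment, and in the 4 livers of a time, were examined for a liver that lay apart, by its gap to the nearest other liver as a share of the whole range, in 40 checks. Chance alone gives about 1 in 20. Control ZT18 replicate 1 lay apart among the 4 control livers for Cidea (share 0.976), Cidec (0.924) and Cd36 (0.912). Sudachitin ZT18 replicate 1 lay apart among the 4 sudachitin livers for Cidea (0.982), Cidec (0.854), Plin4 (0.883) and Pnpla2 (0.911). Each share is above the 95% critical value of Dixon's test for 4 samples. The 4 livers of a treatment hold both times, so a liver lying apart includes any difference between ZT18 and ZT6. No difference in effect between the treatments or times passed the test of the interaction.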

How the results depend on the processing

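G0s2 kept its call between ZT18 and ZT6 over both treatments under every alternative tried. With no filter on low counts, the members called numbered 2 (sudachitin against control at ZT18, Cidec and Cd36), 1 (at ZT6, Cidec), 2 (over both times, Cidec and Cd36), 1 (interaction, Cd36), 5 (ZT18 against ZT6 in sudachitin), 5 (in control) and 7 (over both treatments), where 1.71%, 0.235%, 1.09%, 0.91%, 3.02%, 3.1% and 5.72% of 28464 transcripts were; the cause was not tested. DESeq2 called 5 over both treatments, where 6.49% of all transcripts were. A fit with only the control groups called 0 between times, where 0.029% of transcripts were. Leaving out 1 library leaves an arm with 1 library, which is assumed to vary like the others, so members called are not counted for those fits.

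The replicate numbers link replicates of different groups by number only, and whether they share a batch was not tested. The labels also hold a code for each mouse. Within control ZT6 and within sudachitin ZT6 both codes open with the same prefix. Within control ZT18 and within sudachitin ZT18 the prefixes differ. The meaning of the prefix is not given, and its part in the differences between times was not tested. Correlations of deviations between groups ran from -0.204 to 0.281, the highest between control ZT18 and sudachitin ZT18. With the replicate block 4 members (Plin4, Plin5, Cidec and G0s2) were called over both treatments, where 461 transcripts (3.18%) were, and the log2 change of Cd36 between times in sudachitin was -0.083.

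Without replicate 1 of both ZT18 groups, log2 changes with the opposite sign were, for sudachitin against control, 0.10 (Plin2 at ZT18), 0.015 (Cideb over both times) and -0.027 (Pnpla2 over both times). For ZT18 against ZT6 they were -1.41 (Cidea) and -0.78 (Cd36) in sudachitin, -0.73 (Cidea) in control, and -0.14 (Plin2), -0.94 (Cidea), -0.096 (Pnpla2) and -0.25 (Cd36) over both treatments. Leaving out single libraries, sudachitin against control ranged from -0.64 to 0.24 (Plin2 at ZT18), -3.54 to 0.46 (Cidec at ZT18), -0.78 to 0.21 (Cd36 at ZT6), -3.59 to 1.49 (Cidea over both times), -0.065 to 0.027 (Cideb) and -0.094 to 0.10 (Pnpla2), and the interaction of Cd36 from -2.43 to 0.041. ZT18 against ZT6 ranged from -1.41 to 5.63 (Cidea) and -0.78 to 0.86 (Cd36) in sudachitin, -0.74 to 4.64 (Cidea) in control and -0.028 to 0.34 (Plin2) over both treatments. Of 70 member values 35 changed sign under at least 1 of 16 alternatives, and 0 of these were called. Over all transcripts 534 were called between times over both treatments, against 942 with DESeq2, 1629 with no filter and 946 without those 2 livers.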
